A study of Homo sapiens with 6 samples.

Results

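On the short arm of chromosome 2, candidate 3′ ends were listed in an unusually dense run that began upstream of LRATD1 and ended past MYCN (GRCh38, chr2:14599603-15986104). All peaks of the pooled poly(A) 3′-seq list with a summit between these bounds were taken, which gave 368 of the 200023 peaks of the list. The bounds were chosen by the density of the peaks themselves, so the number of members, their spacing and their density are given as a description with no test. No peak lay between the last peak before the run, 902 kb to the left, and the first member, or between the last member and the next peak, 148 kb to the right.

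The peaks came from IMR-32, an established human neuroblastoma cell line, and all groups were of this 1 line with no genetic change made. There were 6 libraries in 3 groups of 2 biological replicates: the solvent DMSO, 400 nM THZ531 for 2 h and 400 nM THZ531 for 6 h. The compound binds CDK12 and CDK13, kinases that phosphorylate RNA polymerase II, covalently and blocks them. The authors called peaks once on merged reads, taken here to be those of all 6 libraries, so no value below, all of which come from that list, compares DMSO with THZ531, none has a replicate error, and the depth of each library is unknown.

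MYCN is a transcription factor of the MYC family, and amplification of its locus, at times with neighbouring genes such as NBAS and DDX1, is a known feature of neuroblastoma and of IMR-32. A polyadenylated 3′ end forms where the nascent RNA is cleaved shortly after a signal hexamer, most often AATAAA, and is given a poly(A) tail. The library kit primes with oligo(dT), which can also bind A-rich stretches inside a transcript, so a peak marks a candidate end. The files hold no measure of DNA copy number.

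The 4 protein-coding genes LRATD1, NBAS, DDX1 and MYCN lay in the run, and each had a peak over the end of its canonical transcript. The reference sequence at those ends is shown because it places the signal hexamers, in capitals, beside the annotated ends. Each stretch is 30 bases of the gene's strand (GRCh38) that finish 2 bases past the annotated end.

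LRATD1, chr2:14640014-14640043, plus strand: aaaacAATAAAagaatccaggaaaagtaga

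NBAS, chr2:15166914-15166943, minus strand: aattgcaAATAAAactgtatggaaacgatg

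DDX1, chr2:15631074-15631103, plus strand: cccAATGAAAATAAAtttgatgactatatt

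MYCN, chr2:15946977-15947006, plus strand: ttatgaaAATAAAtagcttaaaATTAAAtg

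The hexamer nearest the end began 22 bases before it in LRATD1, 20 in NBAS, 18 in DDX1 and 5 in MYCN, where AATAAA stood further upstream of the ATTAAA. The peaks there held 86 reads at the summit for LRATD1 (chr2:14639951-14640063), 37 for NBAS (chr2:15166905-15167033), 54 for DDX1 (chr2:15630863-15631105) and 100 for MYCN (chr2:15946531-15948161). Reads at the summit means the number of reads, each extended to 100 bp, that cover the highest point of a peak, as recovered from the deposited values. The MYCN peak ran on to 1154 bp past the last annotated end. It had no signal hexamer in the 100 bases up to its 3′ edge on either strand, so the hexamers shown mark the annotated end.

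Most members were not at annotated ends, and 5 of them are shown with the sequence around their 3′ edge, the edge at which reads start on the strand given. In the first 4, 80 bases lead up to the edge and 20 follow, and capitals mark signal hexamers before the edge. In the last, 50 bases lead up to the edge and 50 follow, and capitals mark the 25 bases with the most A.

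The first member, intergenic, chr2:14599627-14599726, plus strand: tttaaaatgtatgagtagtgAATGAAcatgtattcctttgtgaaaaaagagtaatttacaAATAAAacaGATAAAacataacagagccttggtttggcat

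The tallest peak in an NBAS intron (level with 1 other), chr2:15540072-15540171, minus strand: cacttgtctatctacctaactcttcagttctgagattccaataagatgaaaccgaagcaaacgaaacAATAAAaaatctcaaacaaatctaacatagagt

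The peak in introns of MYCN and of its antisense gene MYCNOS, chr2:15941380-15941479, minus strand: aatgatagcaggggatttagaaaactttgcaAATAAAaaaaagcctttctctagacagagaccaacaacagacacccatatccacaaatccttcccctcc

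The peak in the other MYCN intron, chr2:15944467-15944566, plus strand: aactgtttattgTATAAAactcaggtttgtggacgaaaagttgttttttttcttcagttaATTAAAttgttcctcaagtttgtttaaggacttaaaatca

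The tallest intronic peak with A-rich sequence past its edge, in the lncRNA ENSG00000228505, chr2:14620535-14620634, plus strand: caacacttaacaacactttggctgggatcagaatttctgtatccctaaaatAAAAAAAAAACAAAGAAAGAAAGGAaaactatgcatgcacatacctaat

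These examples span the run from its edge to MYCN. The strand of the first member and of the peak shared by MYCN and MYCNOS is not known, and only the strand named is shown. On its other strand, the first member had an AATACA that began 57 bases before the edge. The shared peak had no signal hexamer on the plus strand, and the AATAAA shown on the minus strand began 48 bases before the edge. The NBAS intron peak carried an AATAAA that began 12 bases before its edge, and the plus-strand MYCN intron peak an ATTAAA that began 19 bases before it. The tallest intronic peak of the lncRNA ENSG00000287291 had no signal hexamer in the 100 bases before its edge on the gene's strand.

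The run held 265 peaks per Mb over 1.387 Mb. The 2 Mb to its left held 11 peaks (5.50 per Mb), the 2 Mb to its right held 77 (38.5 per Mb), and both flanks together held 88 over 4 Mb. The rest of chromosome 2 had 71.1 peaks per Mb, and the list outside the run 64.7. The density was thus 12.1 times that of the flanks. The cutoff that the study applied, a −log10 q of 5 or more, was met by 301 of the 368 members (81.8%, 95% Wilson interval 77.5 to 85.4). Over the whole list 69.3% of peaks met this cutoff, and in the flanks 58 of 88 did (65.9%). The members' share was thus above that of the list, but the rule used the same peaks and nothing is read from it. All intervals below are 95% Wilson intervals and cover counting error only.

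The members were spread over the run. In bins of 50 kb, all 27 whole bins of the run held at least 1 peak, with a median of 14 and a highest count of 28. Of the 80 bins of the flanks, 55 were empty and the median was 0. The 323 members that lay between the end of LRATD1 and the annotated end of MYCNOS, over 1268 kb, still had 255 peaks per Mb.

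**Figure D1:**
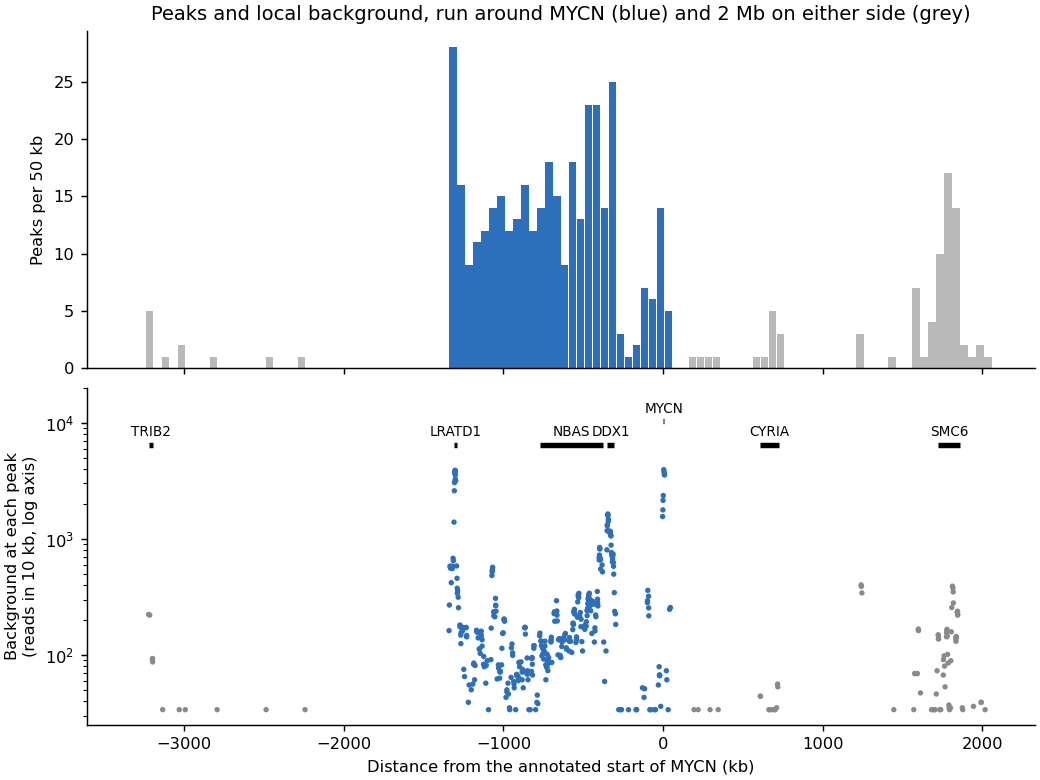
The upper panel plots peaks per 50 kb and the lower panel the local background at each peak (reads in 10 kb, log axis) against distance from the annotated start of MYCN in kb, with the run in blue, the 2 Mb on either side in grey and named genes as black bars. The background of the run had 3 high points, at LRATD1, DDX1 and MYCN, and the bins between DDX1 and MYCN held few peaks.

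Neighbouring summits of the run lay a median of 2133 bp apart (lower quartile 944, upper quartile 5117). The median was 4475 bp in the flanks and 4267 bp outside the run. Of the 367 gaps between members, 100 were under 1 kb (27.2%, 22.9 to 32.0), against 18.2% outside the run. The 4 gaps above 20 kb measured 47.1, 43.7, 36.5 and 23.5 kb, and all of them lay between DDX1 and MYCNOS.

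The run held more peaks than any window of its length elsewhere in the genome, moved in steps of 50 kb. The highest counts of non-overlapping windows were 348 peaks at chr17:81450001-82836502, 336 at chr1:154950001-156336502 and 334 at chr17:42150001-43536502. Those 3 windows overlapped 55, 57 and 47 protein-coding genes, whereas the run overlapped 4. The median over 2193 windows laid end to end was 81 peaks.

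The next question was where the members lay relative to genes. A summit from 200 bp before to 600 bp past an annotated end counted as at a transcript end, and the other summits as in an exon, in an intron or intergenic, the first that applied. Introns held 219 members (59.5%, 54.4 to 64.4), intergenic sequence 103 (28.0%, 23.6 to 32.8), transcript ends 27 (7.34%, 5.09 to 10.5) and exons 19 (5.16%, 3.33 to 7.92). Outside the run, 62.3% of peaks were intronic, 10.1% intergenic, 18.6% at transcript ends and 8.95% in exons. The run thus had a larger share of intergenic peaks and a smaller share at transcript ends than the rest of the list, while the interval of its intronic share included the value of the rest.

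**Figure D2:**
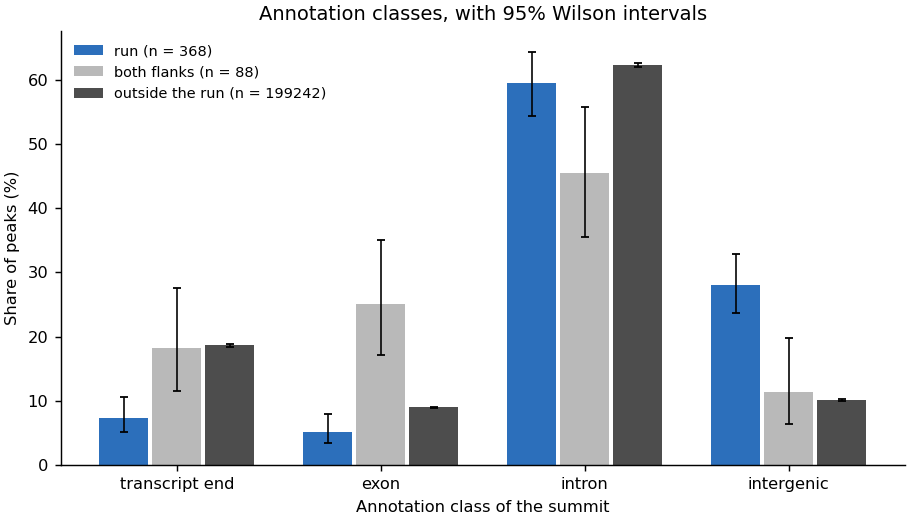
Share of peaks in each annotation class, in percent, for the 368 peaks of the run, the 88 of both flanks and the 199242 outside the run on the assembled chromosomes; error bars are 95% Wilson intervals. Intergenic peaks made up 28.0% of the run, 11.4% of the flanks and 10.1% of the rest.

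The shares of bases differed less between the run and the rest. Intergenic sequence made up 36.6% of the bases of the run and 41.8% of those outside it. Per Mb of intergenic sequence, the run had 203 peaks, the flanks 6.10 and the rest of the genome 15.6. Per Mb of introns, the run had 273, the flanks 17.9 and the rest 78.9. Among windows elsewhere, the 3 with the most intergenic peaks held 116 (chr6:119950001-121336502, with TBC1D32), 109 (chr5:69900001-71286502, with SMN1, SMN2 and NAIP) and 104 (chr6:27600001-28986502, with histone and zinc finger genes). The number of intergenic peaks in the run was thus just under those 3, and the median background of their intergenic peaks was 65, 57 and 81 reads in 10 kb, against 94 in the run.

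Strand was taken from the annotated genes, since the list has none. Of the 265 members in genes, 210 lay in genes of the minus strand only, 53 in genes of the plus strand only and 2 in genes of both strands. The minus-strand members lay mostly in NBAS and in the lncRNA ENSG00000287291, the longest genes of the run.

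The members were taller than peaks elsewhere and stood on more reads. The lowest member had 3 reads at the summit, the median 17 (quartiles 11 and 27) and the tallest 119. The flanks had a median of 11 and a highest value of 68, and peaks outside the run a median of 11. At least 50 reads were found at 34 members (9.24%, 6.69 to 12.6), at 1 peak of the flanks and at 0.997% of peaks outside the run.

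The local background is the number of reads in the 10 kb around a summit, as the peak caller used it. It ranged from the floor of 33.7 reads to 3945 in the run, with a median of 164 (quartiles 86.0 and 323). The median was 69.0 in the flanks, where the highest value was 401, and 70.0 outside the run. Only 17 members (4.62%, 2.90 to 7.27) were at the floor, against 29.5% of flank peaks and 22.2% of peaks outside the run. A background of at least 1000 reads was found at 38 members (10.3%, 7.62 to 13.9), at no flank peak and at 0.412% of peaks outside the run.

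Of all peaks of the list with a background of at least 1000 reads the run held 4.42%, of those with at least 2000 it held 17.3%, and of those with at least 3000 it held 32.6%. Its share of all peaks was 0.184%. Of the peaks with at least 3000 reads in 10 kb, 15 were members, all at LRATD1 or at MYCN and just past its end. As the 10 kb around neighbouring summits overlap, the same reads count at several peaks, in the run and outside it. The other 31 peaks lay outside the run at 4 places. Those places were the mitochondrial genome with 10 peaks, copies of mitochondrial genes on chromosome 1 with 6, and 2 neighbouring places on chromosome 2, at MEIS1 with LINC01798 (11 peaks) and at LINC01797 with LINC01798 (4 peaks). The highest background of the run was exceeded or equalled at 20 peaks of the rest.

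Heights have to be read against this background. In a dense 10 kb a site needs more reads to be listed, so low peaks there cannot appear. The lowest member had 3 reads where the background was at most 34, 7 reads at backgrounds of 100 to 300, 32 at 1000 to 2000 and 66 at 2000 to 5000. Outside the run the lowest peaks in the last 3 of these ranges of background had 5, 23 and 42 reads. The median fold of a member over its background fell across the ranges above 100 reads, from 6.21 at 100 to 300 to 2.34 at 2000 to 5000.

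**Figure D3:**
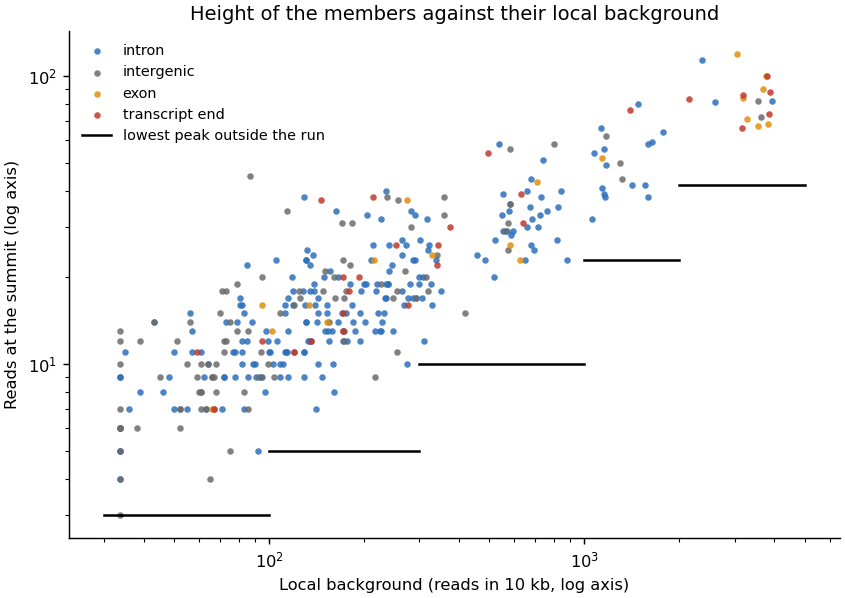
Reads at the summit of each of the 368 members against their local background in reads per 10 kb, both on log axes, coloured by class; black lines give the lowest peak listed outside the run in each range of background. Members in the highest range, 2000 to 5000 reads, had 66 to 119 reads at the summit.

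The members with at least 50 reads had a median fold of 3.47 and a median background of 2254 reads. The 1991 peaks of that height outside the run had a median fold of 9.84 and a median background of 510. At equal height a lower fold restates a higher background, so nothing further is read from this difference. At 100 or more reads the median fold was higher in the run, 3.20 at 4 members against 2.41 at 35 peaks outside. The median backgrounds there were 3418 and 5892. At like backgrounds the median folds of all peaks were closer. They were 3.47 in the run and 3.56 outside at 1000 to 2000 reads, and 2.34 and 2.82 at 2000 to 5000. The heights of all members whose summits lay in the same 10 kb added up to a median of 33.6% of the background there (quartiles 26.7 and 41.5), and the sum was under 50 percent at 318 of 368 members.

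Only 2 members had more than 100 reads. If the peak caller kept 1 read per position and strand, its default, 100 is the most that 1 strand can give, so heights near it do not scale with abundance. The highest in the list was 200.

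**Figure D4:**
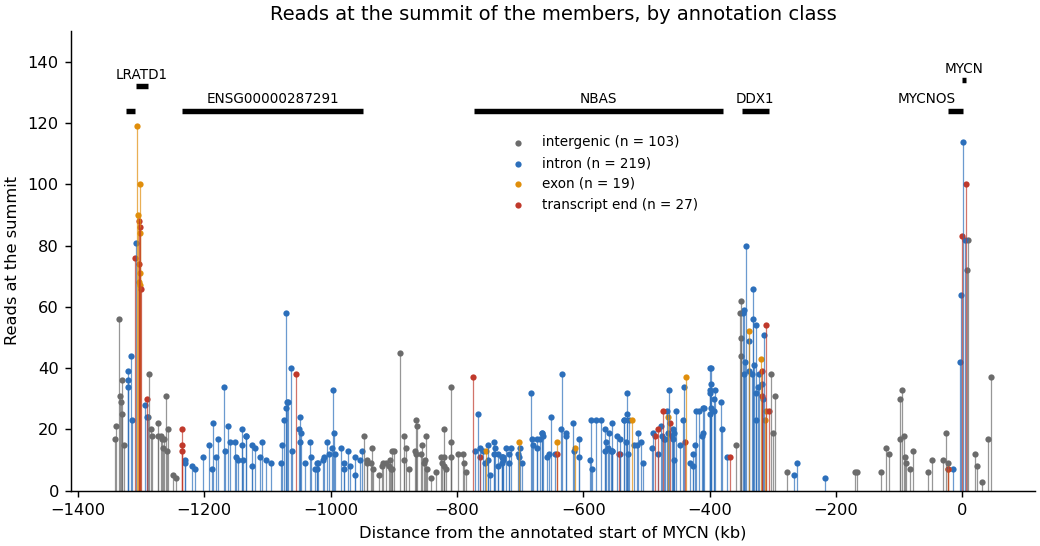
Reads at the summit of each member, coloured by class, against distance from the annotated start of MYCN in kb; black bars are genes, and the bar without a name left of LRATD1 is ENSG00000228505. The tallest members, up to 119 reads, sat at LRATD1, DDX1 and MYCN, whereas members in NBAS reached 40.

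At the left end, the last peak before the run (chr2:13697776-13697875) had 5 reads on the floor of 33.7. The first member (chr2:14599603-14599706) had 17 reads on a background of 162, the next had 21 on 269, and the one after that (chr2:14605801-14606065) had 56 on 581. At the right end, the last 2 members had 17 reads on 247 and 37 on 256 (chr2:15985299-15986104), and the first peak after the run (chr2:16133858-16133957) had 5 on 33.7. The backgrounds at the outermost members were thus several times those of the nearest peaks outside.

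The lncRNA ENSG00000228505 (plus strand, chr2:14616428-14630192) lay between the left edge and LRATD1 and held 6 peaks. Its tallest, at the annotated end, had 76 reads on a background of 1394.

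LRATD1 encodes a protein with an LRAT-like domain and lies on the plus strand (chr2:14632700-14650814). It was the most densely covered gene of the run, with 15 peaks, or 0.828 per kb, and summits a median of 667 bp apart. Of these, 7 lay in exons, 5 at transcript ends and 3 in introns. The lowest had 24 reads, the median 74 and the tallest 119 (chr2:14633300-14634018), which was the tallest member of all. The summit of the tallest lay in an exon of another transcript but within the intron of the canonical transcript. Its 119 reads exceed what 1 strand can give if 1 read is kept per position and strand. That peak had no signal hexamer before its 3′ edge on either strand. The background of the LRATD1 peaks ran from 375 to 3896 with a median of 3189. Of the 15, 12 had a background of at least 1000.

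Among the peaks of LRATD1 at transcript ends, the one at the canonical end had 86 reads. Others had 74 and 88 reads at chr2:14637113-14637235 and chr2:14637376-14637598, 66 at chr2:14640309-14640451 and 30 at chr2:14650711-14650888, the end of the longest transcript. The last of these stood on a background of 375, the lowest among peaks of the gene. The peak of 74 reads had a fold of 1.89 and a −log10 q of 4.53, which did not meet the cutoff that the study applied.

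ENSG00000287291, a long non-coding RNA gene of the minus strand (chr2:14705668-14992066), held 67 peaks over 286 kb, or 0.234 per kb, of which 66 were intronic. Their median was 13 reads, on a median background of 112. Its tallest (chr2:14870665-14870952) had 58 reads on a background of 535 and was the only member above 50 reads between LRATD1 and the sequence just before DDX1. ENSG00000235127, which lies inside it on the same strand, held 5 peaks with 9 to 24 reads and had a peak of 38 reads at its annotated end (chr2:14886303-14886457).

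Between that lncRNA and NBAS, 175 kb of sequence with no annotated gene at any summit held 46 intergenic members, or 0.263 per kb. This was more per kb than in the lncRNA. Their heights ran from 4 to 45 reads with a median of 10, and their backgrounds from 33.7 to 173 with a median of 71.5. This stretch lies past the annotated end of NBAS in its direction of transcription.

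NBAS, which acts in transport from the Golgi to the endoplasmic reticulum and in nonsense-mediated decay, spans 394 kb of the minus strand (chr2:15166916-15561340). It held 133 members, or 0.337 per kb, of which 117 were classed as intronic, 9 as transcript ends and 7 as exonic. Their heights ran from 5 to 40 reads with a median of 17. The tallest were a pair of 40 reads, chr2:15540092-15540213 in intron 6 and chr2:15543260-15543413. No member in NBAS reached a background of 1000, and the median was 183 (range 61.0 to 843).

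The NBAS peaks were spread along the gene. Of its 51 introns, 34 held at least 1 peak, with 125 peaks in all, or 0.323 per kb of intron. Intron 48 held the most, 12 peaks over 28.4 kb, while introns 6 and 44 held 10 each and the first intron held 1. Across 5 equal parts of the gene from its start, the peak numbers were 31, 30, 22, 20 and 30. The median height over the same parts was 26, 19, 14, 17.5 and 12 reads, and the median background was 299, 258, 146, 139 and 104. The background was thus highest in the part of NBAS nearest its start, which is also the part nearest DDX1. The peak at its own end had 37 reads on a background of 146 and a fold of 15.4.

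DDX1 encodes an RNA helicase of the DEAD-box family and lies on the plus strand (chr2:15591178-15634346), head to head with NBAS. It held 26 members over 43.2 kb, or 0.602 per kb: 19 intronic, 4 exonic and 3 at transcript ends. Their heights ran from 23 to 80 reads with a median of 40, and their backgrounds from 496 to 1638 with a median of 1064. Its tallest member (chr2:15597302-15597445, with its summit in intron 4) had 80 reads on a background of 1478. The 3′ edge of that peak on the plus strand lay in the exon after the intron. No DDX1 peak was as low as the median NBAS peak, but this depends in part on which heights could be listed. The background was at least 1000 at 14 of the 26. Outside the run the lowest peak listed at 1000 to 2000 reads had 23.

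Across 5 equal parts of DDX1 from its start, the median height was 58, 44, 41, 36.5 and 38.5 reads and the median background was 1589, 1157, 1070, 691 and 603. These parts held 4 to 7 peaks each. Of its 25 introns, 11 held a peak. In the 29.8 kb between NBAS and DDX1, 7 members were found, and 3 intergenic members there had 58, 62 and 50 reads (chr2:15588256-15588380, chr2:15589470-15590035 and chr2:15590407-15590833), on backgrounds of 804, 1175 and 1296.

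The sequence between DDX1 and MYCNOS was the sparsest of the run. It held 26 members over 284 kb, or 0.0915 per kb, with a median of 10.5 reads and a median background of 53.5. Of these, 10 were at the floor of the background, out of the 17 such members of the run. LINC01804 held 1 peak of 4 reads and ENSG00000224194 held 2 peaks of 5 and 9 reads. The density was still above that of the flanks, which held 88 peaks over 4 Mb, and 1 background there reached 360.

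MYCNOS is the antisense lncRNA gene of MYCN (minus strand, chr2:15918350-15942249), and its start overlaps MYCN. It held 7 members. The 3 furthest from MYCN, including the one at the far annotated end, each had 7 reads, on backgrounds of 36 to 67. The others had 42, 64, 83 and 114 reads on backgrounds of 1557, 1777, 2146 and 2363. The peak of 83 reads (chr2:15939842-15940241) lay at an annotated MYCNOS end, with its summit 609 bp before the start of MYCN.

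MYCN itself (plus strand, chr2:15940550-15947007) had 3 members over 6.46 kb. The one in the first intron (chr2:15941400-15941664) had 114 reads on a background of 2363, and as this intron is shared with MYCNOS its strand is not known. Its 114 reads exceed what 1 strand can give if 1 read is kept per position and strand. The one in the other intron (chr2:15944413-15944546) had 82 reads on a background of 3945, the highest background of the run, and a fold of only 2.05. The one at the transcript end had 100 reads on 3789, with a fold of 2.60.

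The MYCN end peak was 1631 bp wide, the widest member, and 13 peaks of the rest of the list were as wide or wider. The annotation gives MYCN 3 transcript ends, at positions 15946539, 15947004 and 15947007. The summit at 15946639 lay 368 bp before the last of these, and the peak ran on to 1154 bp past it. Beyond it, intergenic members with 72 reads (chr2:15948367-15948775) and 82 reads (chr2:15948918-15949378) had summits 1642 and 1973 bp past the last annotated end, on backgrounds of 3632 and 3552. No other gene is annotated at their summits. Their folds were only 1.96 and 2.27, and the first, with a −log10 q of 4.86, did not meet the cutoff that the study applied. The 5 members after these, from 13689 to 38789 bp past the end, had 12, 8, 3, 17 and 37 reads, on backgrounds of 73, 61, 34, 247 and 256.

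To see how the 4 coding genes of the run compared with others of their length, each was set beside the detected protein-coding genes of 80 to 125 percent of its length. NBAS held 133 peaks, while the median of 332 such genes was 43 and their maximum 110. DDX1 held 26, while the median of 1818 genes was 9 and their maximum 22. LRATD1 held 15, while the median of 1517 genes was 5, and 1 of them had as many or more. MYCN held 3, while the median of 767 genes was 2, and 295 of them had as many or more. By number of peaks MYCN was thus not unusual. Peak density set the bounds of the run, so these comparisons by number are a description only.

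By background all 4 stood at or near the top. The median background over its peaks was 183 in NBAS against a median of 37 among genes of like length, 1064 against 110 for DDX1, 3189 against 168 for LRATD1 and 3789 against 251 for MYCN. It was equalled or exceeded by 1 gene of like length for DDX1 and by none for the other 3. By the tallest peak, NBAS was less apart: 50 of the 332 genes reached its 40 reads or more.

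The coding genes of the flanks overlapped NBAS in their values but not DDX1, LRATD1 or MYCN in their median background. TRIB2, a pseudokinase, had 5 peaks and 30 reads at its end. CYRIA, which regulates actin through RAC1, had 10 peaks and 6 reads at its end on a median background of 34.4. SMC6, a subunit of a chromosome maintenance complex, had the most, 39 peaks with at most 39 reads and a median background of 143. GEN1, a resolvase of Holliday junctions, had 13 peaks, or 0.370 per kb, with a median background of 224, both above the 0.337 and 183 of NBAS. It lies inside the interval of SMC6 on the opposite strand, so these 13 peaks are also among the 39 of SMC6. As the list has no strand, it does not assign them to either gene. VSNL1, a neuronal calcium sensor, had 9 peaks. KCNS3, a potassium channel subunit, extends past the end of the flank and had 8 over its whole length. MSGN1, a transcription factor of early mesoderm, had none in its body and 1 of 5 reads at its end.

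A signal hexamer and an A-rich stretch were looked for at each member, since neither entered the rule. The hexamers were the 12 that the study lists (AATAAA itself, the common variant ATTAAA, and the rarer TATAAA, the hexamer GATAAA, the hexamer CATAAA, the hexamer AGTAAA, the hexamer ACTAAA, the hexamer AAGAAA, the hexamer AATGAA, the hexamer AATATA, the hexamer AATAGA and the hexamer AATACA), in the 100 bp that end at the 3′ edge on the strand searched, and they can overlap each other. At least 1 was found on the gene strand at 186 of the 263 members with 1 gene strand (70.7%, 65.0 to 75.9) and on the opposite strand at 51.0%. Outside the run the shares were 59.4% and 40.3%, and in the flanks 60.3% and 47.6%. For AATAAA and ATTAAA alone, they were 39.5% and 19.0% in the run and 36.0% and 15.6% outside it.

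Intronic members showed the same. Of 217, 149 had a hexamer on the gene strand (68.7%, 62.2 to 74.5) against 54.2% outside the run, and 50.2% on the opposite strand against 36.1%. The gene strand thus exceeded the opposite strand by 18.4 percentage points in the run and by 18.1 outside it. By background, the intronic share on the gene strand was 56.0% in the run at up to 100 reads (42.3 to 68.8), 68.8% at 100 to 300 (59.6 to 76.7) and 79.3% above 300 (67.2 to 87.7), and outside the run it was 53.5%, 56.9% and 50.5%. At transcript ends 23 of 27 members had a hexamer on the gene strand (85.2%, 67.5 to 94.1), with 77.4% outside the run and 12 of 13 in the flanks, and at intergenic members 73 of 103 had 1 on either strand (70.9%, 61.5 to 78.8) against 62.3% outside the run.

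A-rich sequence, 25 bases with at least 18 A within 50 bp past the edge, was less frequent. On the gene strand it was found at 20 of 263 members (7.60%, 4.98 to 11.5) against 23.6% outside the run. In introns it was found at 17 of 217 (7.83%, 4.95 to 12.2) against 29.4% outside the run and 7 of 35 in the flanks. In introns the opposite strand gave 3.23% in the run and 3.37% outside it, so the difference was on the gene strand. In NBAS it was 8 of 117 (6.84%, 3.51 to 12.9) and in DDX1 0 of 19, which allows up to 16.8%.

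The A-rich share moved with the background, so it was also read at like backgrounds. Among intronic peaks with at most 100 reads in 10 kb it was 10.0% in the run (5 of 50, 4.35 to 21.4) and 33.7% outside it. At 100 to 300 reads it was 9.17% (10 of 109, 5.06 to 16.1) and 21.2%, and above 300 it was 3.45% (2 of 58, 0.951 to 11.7) and 9.05%. The share in the run was thus below that outside it in each range, with intervals that excluded the outside value in the lower 2 ranges only. Of the 217 intronic members, 117 lay in NBAS and 66 in ENSG00000287291. The intervals treat such neighbours as independent, so they do not test the difference. The splits by background were chosen after the data were seen.

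**Figure D5:**
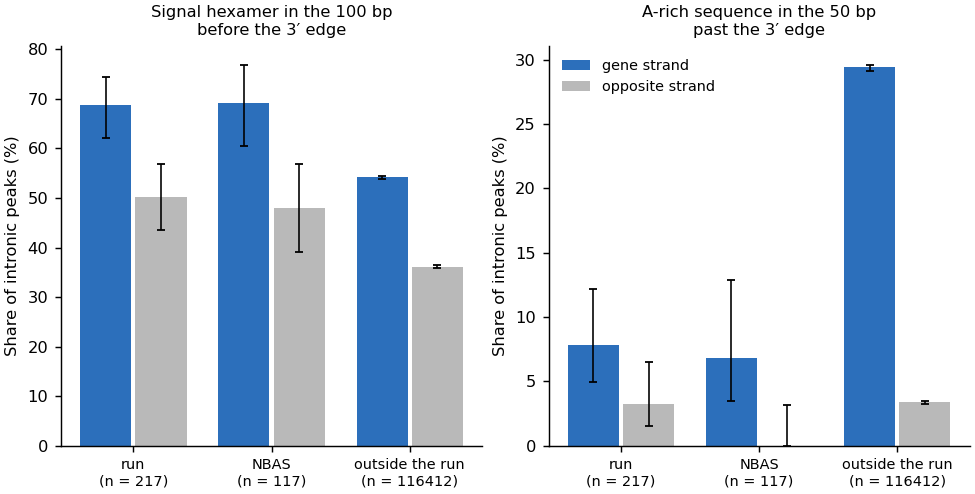
Share of intronic peaks, in percent, with a signal hexamer in the 100 bp before the 3′ edge (left) and with A-rich sequence in the 50 bp past it (right), on the gene strand in blue and the opposite strand in grey, for 217 members of the run, 117 of them in NBAS, and 116412 peaks outside the run; error bars are 95% Wilson intervals. On the gene strand A-rich sequence was found at 7.83% of members and 29.4% of the rest.

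Intergenic members had A-rich sequence on either strand at 21 of 103 (20.4%, 13.7 to 29.2), against 34.3% outside the run. It lay on the minus strand at 18 of them (17.5%, 11.3 to 25.9) and on the plus strand at 3 (2.91%, 0.995 to 8.22), while outside the run the strands were even (17.2% and 17.3%). Of the 18, 15 were among the 46 intergenic members past the end of NBAS, where the plus strand had 1. NBAS and ENSG00000287291, the genes on either side of this stretch, both lie on the minus strand. Which transcripts these peaks came from was not tested. Hexamers showed less of a difference between the strands there, with 28 of 46 on the minus and 21 on the plus strand.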

How the data were processed

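The 6 poly(A) 3′-seq libraries in 3 groups were made from IMR-32 cells with a kit whose reads start at the junction with the poly(A) tail. Per the study's methods and the labels, the authors trimmed reads, mapped them to GRCh38 with STAR (version 2.5.1b), merged all samples and called peaks with MACS2 (version 2.1.1), extending reads to 100 bp, with no control library. Reads with several placements in the genome were kept. The deposited list gives each peak a fold enrichment (a ratio to the local background), −log10 p-values and −log10 q-values, a summit offset, and a score that the authors' peak caller derives from q and that was not used. It has no strand and no value for a single library, so replicates, pairs and treatments were not compared. Strand-specific coverage tracks that the labels name for each group were not analysed here.

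The reads at the summit and the local background were worked out from each peak's deposited fold and p-value. The largest misfit of −log10 p was 0.000172, and every background above its floor was a whole number of reads in 10 kb (tolerance 0.1). On 13727 simulated peaks, 100.0% of pileups were recovered. Coordinates are GRCh38 and 1-based, and sequences are of the reference. Genes were those of Gencode release 44, later than the release of the study. Shares have 95% Wilson intervals. Tools were Python 3.11.15, numpy 2.4.6, scipy 1.17.1, pandas 2.3.3 and matplotlib 3.10.9.

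The members and lists were chosen with earlier results of these data known. The genes named were the protein-coding genes of the run and of 2 Mb on either side and non-coding genes of the run with at least 3 peaks. Another gene of the flanks is not reported here. The peaks named were the 10 tallest, the tallest by class and at transcript ends, and those at the bounds. The 3 windows with most intergenic peaks were named too. The other non-coding genes, the windows with most peaks, the places with backgrounds of at least 3000 and further peaks near named genes were picked after their values were seen.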

Additional observations from a re-analysis of the deposited data

How the results depend on the processing

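No paired analysis was possible because peaks were called on merged reads and no result comes from a test. Of 36 alternatives over 8 results, 22 left the value close to that given, among them the pair chosen after the data were seen, in which only members between LRATD1 and MYCNOS were kept (density ratio 11.6, median background 148), and 14 moved it. With −log10 q of at least 20, 32 members remained, with a median background of 265 reads, a median spacing of 24163 bp, a hexamer at 81.2% and A-rich sequence at 6.25%. The density ratio of 12.1 became 35.4 against flanks of 1 Mb, 4.59 against flanks of 5 Mb and 33.3 for intergenic peaks alone, of which the flanks held 10. The ratio of the median background to that of the flanks, 2.38, became 4.87 with flanks of 1 Mb and 4.82 for intronic peaks alone. Alternatives counted as close lowered it to 1.74 with −log10 q of at least 5, 1.81 for intergenic peaks alone and 2.04 with flanks of 5 Mb. Others raised it to 2.49 with summit reads subtracted and 2.80 with −log10 q of at least 20. The intergenic share was 51.6% when only protein-coding genes were counted. Over all 368 members the hexamer share of 70.7% became 44.0% for AATAAA and ATTAAA alone and 57.1% in a window of 50 bp, and the A-rich share of 11.4% became 0.815% when at least 22 of 25 bases had to be A. No result reversed. The pooled list sets no error between libraries, and heights are limited by the number of distinct start positions.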
